A study of Homo sapiens with 2 samples.

Results

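Most proteins of the mitochondrial ribosome (mitoribosome) are encoded by genes with symbols that begin with MRPL or MRPS and a digit. This rule found 77 protein-coding RefSeq genes out of 20033 placed on chromosomes (GRCh38.p14). Of these, 49 are MRPL genes, named for the large subunit, and 28 are MRPS genes, named for the small subunit. PHF8, a histone lysine demethylase, was profiled by chromatin immunoprecipitation and sequencing (ChIP-seq) in RKO, an established human colon carcinoma line, in cells given by transfection either empty vector or an overexpression plasmid for APOC2, the gene of an apolipoprotein that activates lipoprotein lipase. The same anti-PHF8 antibody was used for both. There was 1 library for each condition and 1 table of peaks for each library, with 4015 peaks for the vector and 8928 for APOC2. With no replicates there is no spread to judge a difference by, so no test was made and every comparison describes these libraries.

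The mitoribosome translates the few respiratory chain proteins that mitochondrial DNA encodes. All of its own proteins are made from nuclear genes, translated in the cytosol and imported. The small subunit binds the messenger RNA and reads the codons, and the large subunit joins the amino acids and holds the exit tunnel. PHF8 carries a PHD finger that binds the trimethylated lysine of histone H3 found at active promoters, and a JmjC domain that removes repressive methyl groups from histones.

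A gene was counted as occupied when the midpoint of a peak lay within 1 kb of the annotated start or end of the gene. The values of a peak are the authors': the pileup is the height of stacked fragments at the summit, in whole fragments for APOC2 and scaled by 0.98953 for the vector, and the fold enrichment is that pileup over the local background, with 1 added to both. Where a gene had several peaks, the one of highest fold enrichment was used. Intervals are 95% Wilson intervals for shares and 95% order-statistic intervals for medians. They cover counting over genes only, and genes of 1 library are not replicates. A gene that is not occupied had no listed peak there, which places its signal under the caller's threshold and does not show that PHF8 was absent.

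The reference promoters below belong to members chosen by rule, so that the sequence at occupied and at unoccupied members can be seen side by side. MRPL41 had the highest log2 ratio of fold enrichment, 0.854, among members with a peak in both libraries, level with MRPS28 at 0.853; without the added 1 MRPS28 ranked first, at 0.98 against 0.89. MRPL20 and MRPS5 had the strongest peaks of their subunits among members occupied in the APOC2 library alone. MRPL1 and MRPS6 were occupied in neither library and stand first by number in their subunits. Each run holds 280 bases of RefSeq sequence, 250 before the gene start and 30 from it on, 5′ to 3′ along the gene's strand. Capitals mark matches, on either strand, to the motifs described further on. The windows are chr9:137551629-137551908 (+ strand) for MRPL41, chr1:1407264-1407543 (- strand) for MRPL20, chr2:95121779-95122058 (- strand) for MRPS5, chr4:77862580-77862859 (+ strand) for MRPL1 and chr21:34073328-34073607 (+ strand) for MRPS6.
MRPL41: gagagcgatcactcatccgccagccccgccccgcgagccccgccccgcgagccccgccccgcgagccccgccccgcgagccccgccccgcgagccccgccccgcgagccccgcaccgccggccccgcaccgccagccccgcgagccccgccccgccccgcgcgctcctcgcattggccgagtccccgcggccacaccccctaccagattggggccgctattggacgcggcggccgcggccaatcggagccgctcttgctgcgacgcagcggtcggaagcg
MRPL20: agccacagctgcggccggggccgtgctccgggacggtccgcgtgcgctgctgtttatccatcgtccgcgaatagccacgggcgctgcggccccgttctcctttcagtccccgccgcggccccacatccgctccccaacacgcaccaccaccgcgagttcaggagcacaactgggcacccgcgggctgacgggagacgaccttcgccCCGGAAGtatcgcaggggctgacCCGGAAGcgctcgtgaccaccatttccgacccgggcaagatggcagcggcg
MRPS5: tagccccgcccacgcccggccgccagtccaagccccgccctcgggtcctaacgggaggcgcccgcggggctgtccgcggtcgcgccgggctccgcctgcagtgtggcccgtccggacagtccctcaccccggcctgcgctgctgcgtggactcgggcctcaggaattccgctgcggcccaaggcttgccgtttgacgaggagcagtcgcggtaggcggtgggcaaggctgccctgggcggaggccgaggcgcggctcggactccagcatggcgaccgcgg
MRPL1: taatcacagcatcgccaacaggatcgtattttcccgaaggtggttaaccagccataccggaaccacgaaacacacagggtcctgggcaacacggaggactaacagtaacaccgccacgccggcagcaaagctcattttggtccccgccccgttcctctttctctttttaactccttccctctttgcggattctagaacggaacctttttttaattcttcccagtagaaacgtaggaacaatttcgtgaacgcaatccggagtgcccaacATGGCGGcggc
MRPS6: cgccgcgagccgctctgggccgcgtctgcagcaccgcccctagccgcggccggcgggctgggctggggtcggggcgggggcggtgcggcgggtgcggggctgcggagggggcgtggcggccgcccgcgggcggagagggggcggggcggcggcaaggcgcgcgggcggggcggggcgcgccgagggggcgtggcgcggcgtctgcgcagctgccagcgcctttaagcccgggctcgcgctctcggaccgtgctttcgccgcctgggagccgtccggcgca

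The promoter of MRPL20 held the ETS motif at 2 places, and that of MRPL1 held the YY1 motif in the last bases shown. MRPL41, MRPS5 and MRPS6 had no match in these windows. The unoccupied MRPS6 had the highest GC content of these windows, 83.9%, against 81.4% for MRPL41, 75.7% for MRPS5, 70.0% for MRPL20 and 51.4% for the unoccupied MRPL1. GC content thus did not separate the occupied from the unoccupied among these examples.

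PHF8 peaks were found at 9 of the 77 mitoribosomal protein genes in the vector library, a share of 11.7% (6.27 to 20.7%). Over all protein-coding genes the share was 5.95%. In the APOC2 library, 27 of the 77 were occupied, 35.1% (25.3 to 46.2%), against 23.8% of all protein-coding genes. There were 7 members with a peak in both libraries, or 9.09%, where 5.85% of all protein-coding genes had one. A peak in the APOC2 library alone was listed at 20 members, or 26.0%, where the share over all protein-coding genes was 18.0%. In the vector library alone it was 2 members, or 2.60%, where 0.105% of all protein-coding genes were, and 48 members were occupied in neither. MRPS2 was counted to the vector alone by the distance limit. An APOC2 peak overlapped its vector peak, with a midpoint 1012 bp from the gene start. The members' shares lay above those of all protein-coding genes in both libraries. Without chromosomes 8 and 9 this turned for the vector, with 4.23% of members against 4.51% of all protein-coding genes. The step from vector to APOC2 was seen over all protein-coding genes as well. With equal numbers of top-ranked peaks taken from both tables, the members' share in the APOC2 library was 15.6% and that of all protein-coding genes 12.5%, so the gap between the libraries was narrower by that count. For the large subunit the gap was gone, with 7 of 49 (14.3%) in both libraries.

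**Figure D1:**
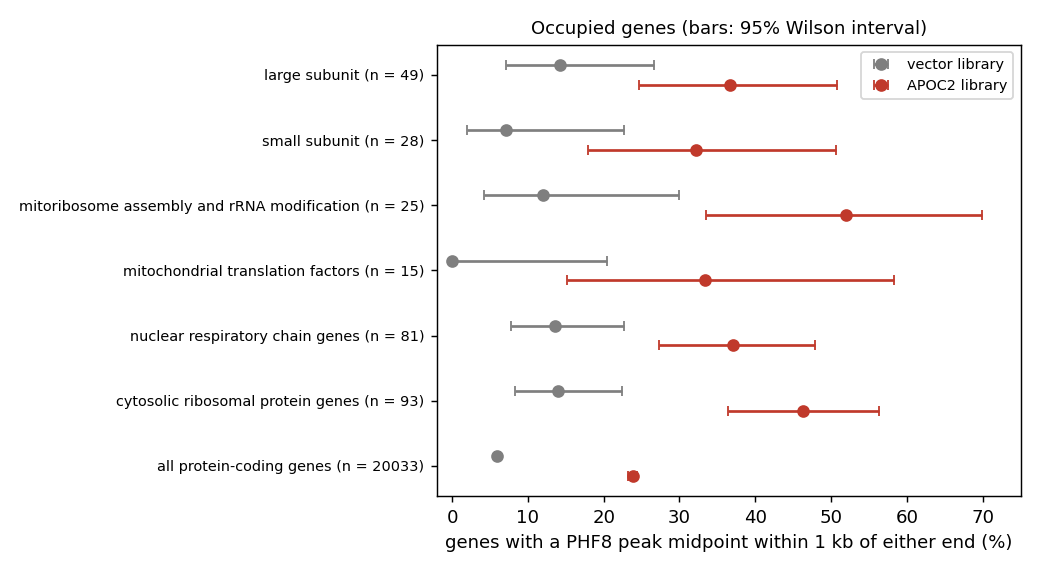
Share of genes with a PHF8 peak midpoint within 1 kb of either gene end (x axis, percent) for the gene lists on the y axis, in the vector library (grey) and the APOC2 library (red), with bars for the 95% Wilson interval. The large subunit (14.3% and 36.7%) and the small subunit (7.14% and 32.1%) have intervals that overlap in each library.

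The large and small subunits were then compared. In the vector library 7 of 49 large subunit genes (14.3%, 7.10 to 26.7%) and 2 of 28 small subunit genes (7.14%, 1.98 to 22.6%) were occupied. In the APOC2 library it was 18 of 49 (36.7%, 24.7 to 50.7%) and 9 of 28 (32.1%, 17.9 to 50.7%). The difference, large minus small, was 7.14 percentage points in the vector library (Newcombe interval -9.95 to 20.6) and 4.59 in the APOC2 library (-17.5 to 24.5), so no difference between the subunits was detectable with this number of genes. The RefSeq synonyms place MRPS18A (mL66) and MRPS30 (mL65) in the large subunit despite their symbols, and neither was occupied. Counted by synonym, the shares in the APOC2 library were 18 of 51 (35.3%) for the large and 9 of 26 (34.6%) for the small subunit. When only the gene start counted, members without a known start were left out. The small subunit then had the higher share in the APOC2 library, 9 of 27 (33.3%) against 13 of 42 (31.0%). Of the members left out, MRPL2, MRPL10, MRPL13, MRPL35 and MRPS28 were occupied in that library by the main rule. MRPL15, MRPL21 and MRPL23 were not. The part that the smaller set has in this turn was not tested. With equal numbers of top-ranked peaks, over the full set, the small subunit share was 17.9% against 14.3%.

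Peak strength was also compared between the subunits. The median fold enrichment at occupied members of the APOC2 library was 5.48 for the large subunit (4.46 to 6.59, 18 genes) and 5.48 for the small subunit (4.15 to 6.69, 9 genes). Over all occupied protein-coding genes of that library it was 5.41, with quartiles of 4.32 and 6.93. The median pileup in the APOC2 library was 25 fragments at the 18 large subunit genes, 31 at the 9 small subunit genes and 28 over all occupied protein-coding genes. In the vector library the 9 occupied members had a median fold enrichment of 5.54 (4.90 to 6.72), against 5.18 over all occupied protein-coding genes. Only 4 of the 27 members of the APOC2 library lay above the upper quartile of all occupied protein-coding genes, and 5 lay below the lower quartile. The strongest peak at any member had a fold enrichment of 9.24, where the strongest at any protein-coding gene of the same library had 43.0.

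**Figure D2:**
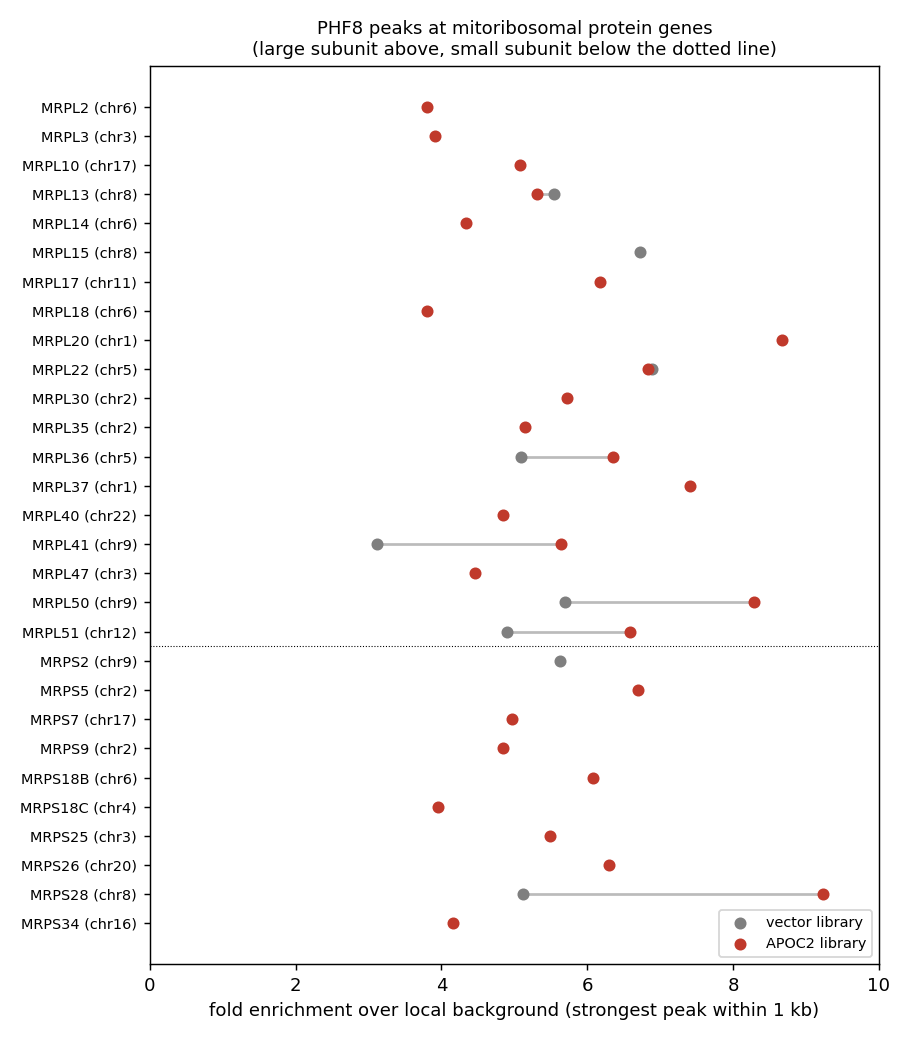
Fold enrichment of the strongest PHF8 peak (x axis) at each of the 29 members occupied in at least 1 library (y axis, with chromosome), in the vector library (grey) and the APOC2 library (red). Grey lines join members with a peak in both; MRPS2 has its APOC2 peak just outside the 1 kb limit, and values in the APOC2 library run from 3.81 to 9.24.

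Members with a peak in both libraries numbered 7, of which 6 belong to the large subunit. All 7 pairs of peaks overlapped. Fold enrichment was higher in the APOC2 library at 5 of the 7, with a median log2 ratio of 0.43 (-0.06 to 0.85). Among all protein-coding genes occupied in both libraries it was higher at 89.4%, with a median of 0.52 (0.49 to 0.55). The members' median thus lay close to that of all such genes. The next paragraphs give these genes in turn.

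MRPL41, a large subunit protein also known to bind BCL2, lies at chromosome 9, 137551879 to 137552555. Its vector peak (137551907 to 137552169) had a pileup of 39.6 and a fold enrichment of 3.12. Its APOC2 peak (137551876 to 137552260) had a pileup of 61 and a fold enrichment of 5.64. Their summits were 3 bp apart, 144 and 141 bp past the gene start. The local background was high at both, at 12.0 for the vector and 9.99 for the APOC2 peak. Most APOC2 backgrounds lay on steps of 0.833, so these heights are not on the same scale. A second APOC2 peak lay upstream of the gene, with its summit 394 bp before the start and a fold enrichment of 4.84.

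MRPS28, a small subunit protein on chromosome 8, was the small subunit gene with a peak in both libraries. The vector peak, 309 bp long, had a pileup of 29.7 and a fold enrichment of 5.11. The APOC2 peak had a length of 927 bp, a pileup of 39 and a fold enrichment of 9.24, the highest at any member. The midpoint of the APOC2 peak, unlike that of the vector peak, also came within 1 kb of a boundary of the neighbouring TPD52.

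MRPL50 and MRPL51, both proteins without a bacterial counterpart, share their start regions with other genes. MRPL50 (chromosome 9, 101387633 to 101398618) lies head to head with ZNF189. Its fold enrichment was 5.69 with a pileup of 21.8 in the vector library, and 8.29 with a pileup of 28 in the APOC2 library. MRPL51 (chromosome 12, 6491886 to 6493262) lies head to head with NCAPD2, the gene of a condensin subunit. Its strongest vector peak had its summit 422 bp before the MRPL51 start, with a pileup of 24.7 and a fold enrichment of 4.90. Its strongest APOC2 peak was 839 bp long, reached over the start to a summit 78 bp inside the gene, and had a pileup of 33 and a fold enrichment of 6.59. The APOC2 library listed a second peak at each of these genes, so MRPL41, MRPL50 and MRPL51 were the 3 members with several peaks.

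MRPL36, a small zinc-binding protein of the large subunit, was occupied through the end of its annotation that faces NDUFS6, a complex I gene. Relative to the RefSeq promoter start of MRPL36, the summits lay at -1305 bp (vector) and -1373 bp (APOC2). Fold enrichment was 5.09 with a pileup of 34.6 in the vector library and 6.35 with a pileup of 33 in the APOC2 library. MRPL22, whose bacterial counterpart lines the exit tunnel, had no other gene boundary near its peaks (chromosome 5, 154941097 to 154941361 in the vector library). Fold enrichment there was 6.89 with a pileup of 19.8 for the vector, and 6.84 with a pileup of 17 for APOC2. MRPL13, on chromosome 8 beside MTBP, had fold enrichments of 5.54 and 5.31 and pileups of 26.7 and 22. MRPL22 and MRPL13 were the pair of members whose fold enrichment was lower in the APOC2 library, and the counting intervals of their depth-scaled pileups spanned 0.

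**Figure D3:**
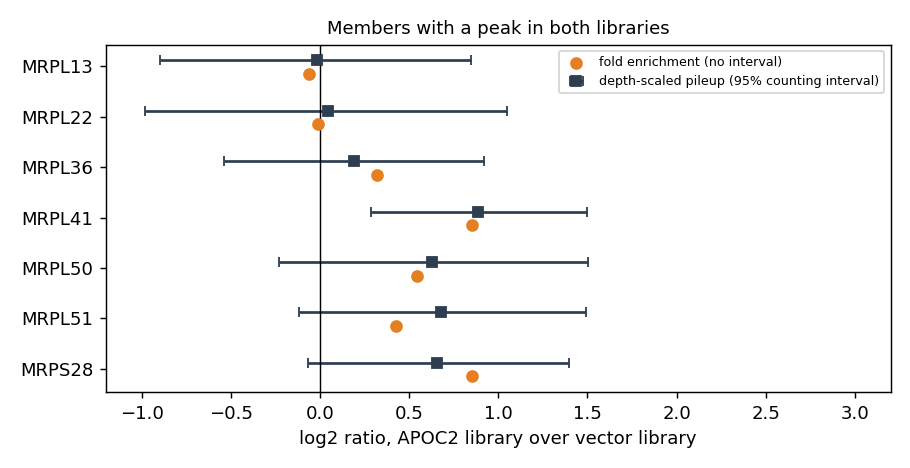
log2 ratio, APOC2 over vector, at the 7 members with a peak in both libraries: squares give the depth-scaled pileup with its 95% counting interval, orange points the fold enrichment. The interval lies above 0 for MRPL41 (0.29 to 1.50) and spans 0 for the other 6.

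The libraries differed in depth. The steps between the values placed the APOC2 library at 0.824 times the depth of the vector library, if the same control stood behind both tables. Pileups scaled for this depth gave log2 ratios between -0.02 at MRPL13 and 0.89 at MRPL41. The exact binomial interval of that ratio, which covers counting of fragments only, lay above 0 at MRPL41 (0.29 to 1.50). At the other 6 members it spanned 0, from -0.07 to 1.39 at MRPS28 and from -0.11 to 1.49 at MRPL51. With 1 library per condition, these intervals cannot judge a change between the conditions. Nor do they set MRPL41 apart, since how many other protein-coding genes have such an interval above 0 was not counted. By fold enrichment, a different measure without an interval, 89.4% of all protein-coding genes occupied in both libraries were higher in the APOC2 library. A summit is the highest point of its peak, and the error from that choice is not in these intervals.

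Members occupied in the vector library alone were MRPL15 and MRPS2. MRPS2, a small subunit protein with counterparts in all ribosomes, had a vector peak at chromosome 9, 135500646 to 135501081, where the pileup was 47.5 and the fold enrichment 5.63. An APOC2 peak overlapped it (135500624 to 135501330) with a fold enrichment of 7.62, but its midpoint lay 1012 bp from the annotated gene start, against 898.5 bp for the vector peak. The vector summit lay 54 bp past the RefSeq promoter start, which itself lies inside the annotated gene range. MRPS2 was thus assigned to the vector library alone by the distance limit and not by the lack of a peak. At MRPL15, a large subunit protein on chromosome 8, the vector peak (54134902 to 54135416) reached a pileup of 20.8 and a fold enrichment of 6.72. The nearest APOC2 peak lay 33.5 kb away.

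Among the 20 members occupied in the APOC2 library alone, 12 belonged to the large and 8 to the small subunit. The strongest was MRPL20, an RNA-binding protein of the large subunit. Its peak (chromosome 1, 1407011 to 1407714) had a pileup of 36 and a fold enrichment of 8.67, and the summit lay 217 bp before the gene start, inside the promoter window printed above and toward MRPL20-DT. MRPL37 followed with a pileup of 36 and a fold enrichment of 7.41, and its summit was 176 bp inside the gene. The strongest at a small subunit gene was at MRPS5, whose bacterial counterpart acts in the accuracy of decoding. It had the highest pileup of all members, 67 fragments, and a fold enrichment of 6.69 over a scaled background of 9.16 (chromosome 2, 95121655 to 95122008). These peaks had no listed counterpart at their genes in the vector library, where the nearest peak lay 575 kb from MRPL20 and 583 kb from MRPS5.

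Further down this order, MRPS26 had a fold enrichment of 6.30 and a pileup of 42. MRPL17 had 6.17 and 36, and MRPS18B 6.08 and 15. MRPL30 had a fold enrichment of 5.72, MRPS25 5.48, MRPL35 5.15 and MRPL10 5.08. MRPL10 anchors the stalk that recruits translation factors, and its stalk partner MRPL12 was not occupied. MRPS18B and MRPS18C were occupied and their paralog MRPS18A was not. The 5 lowest were MRPS34 (4.15), MRPS18C (3.95), MRPL3 (3.92), and MRPL2 and MRPL18 (both 3.81). MRPS18C had the lowest pileup of all occupied members, 13 fragments, and a -log10 q of 3.21. Of the 20 members, 10 fell below a fold enrichment of 5. The share below 5 over all genes occupied in the APOC2 library alone was not computed. At a minimum fold enrichment of 5, 22.1% of all members were occupied in the APOC2 library, against 35.1% without that minimum. Over all protein-coding genes it was 14.1% against 23.8%.

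The 48 members occupied in neither library included 30 of the large and 18 of the small subunit. Among them were MRPL11 and MRPL12 of the stalk region, MRPL4, MRPL16, MRPL23, MRPL24 and MRPL27, the release factor homolog MRPL58, the codon-reading protein MRPS12, and MRPS10, MRPS14, MRPS15 and MRPS16. MRPL46 and MRPS11, which lie head to head on chromosome 15 and so share a start region, were both unoccupied, with the nearest APOC2 peak 867 kb from MRPL46 and 854 kb from MRPS11. Near the distance limit, MRPS18B was the outermost occupied member of the APOC2 library, at 717.5 bp. Just outside it came MRPS2 at 1012 bp and MRPL38 at 1.9 kb, and the other unoccupied members were more than 3 kb from an APOC2 peak. In the vector library the nearest unoccupied member was MRPL53, at 6.6 kb. Peaks near the limit thus decided the call for few members.

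Occupied members of the vector library were unevenly spread over the chromosomes. Chromosome 8 carries MRPL13, MRPL15 and MRPS28, and chromosome 9 carries MRPL41, MRPL50 and MRPS2. All 6 were occupied in the vector library, whereas 3 of the 71 members on other chromosomes were (MRPL22, MRPL36 and MRPL51; 4.23%, 1.45 to 11.7%). Over all protein-coding genes the vector shares were 23.8% on chromosomes 8 and 9 and 4.51% on the other chromosomes. In the APOC2 library 4 of these 6 members were occupied, and 23 of the 71 others were (32.4%, 22.7 to 43.9%). Over all protein-coding genes the APOC2 shares were 40.0% and 22.5%. Without chromosomes 8 and 9, the vector share of the members was therefore close to that of all protein-coding genes, and 0 of the 26 small subunit genes were occupied, which allows a share of up to 12.9% (upper Wilson bound). Peaks on these chromosomes were also stronger and longer over all occupied protein-coding genes of the APOC2 library. Median fold enrichment was 6.88 on chromosomes 8 and 9 and 5.23 on the others, and median peak length 468 and 299 bp. At occupied members the medians were 6.97 and 586 bp on chromosomes 8 and 9 (4 genes), and 5.15 and 308 bp elsewhere (23 genes). The part that these chromosomes have in the result was not tested. In the APOC2 library, occupied members lay on 14 of the 21 chromosomes that carry any.

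Most peaks lay beside the gene start rather than on it, at the members and over all protein-coding genes. The RefSeq promoter table gave a start and strand for 69 of the 77 members, and for 21 occupied in the APOC2 library the summit lay within 1 kb of that start. Of these 21, 13 had their summit past the RefSeq promoter start and 8 before it, and 11 (52.4%) lay 50 to 300 bp past it. Over 3610 protein-coding genes of that library, 63.3% lay in that range and 73.8% had their summit past the start. The median position was 77 bp past the start for the members and 130.5 bp for all protein-coding genes. Summits less than 50 bp from the start were listed at 2 of the 21 members (9.52%), MRPL14 (37 bp) and MRPS18C (8 bp). Over all protein-coding genes of that library it was 74 of 3610 (2.05%). The 8 peaks before the start reached from -55 bp at MRPS5, whose summit still lay 140 bp inside the annotated gene range, to -767 bp at MRPS18B. In 7 of these 8 the summit lay over 200 bp upstream. Over all protein-coding genes, 785 of the 945 summits before the start lay 200 bp or more upstream. Those of the members lay at MRPL18 toward TCP1, MRPL40 toward HIRA, MRPL47 toward NDUFB5 and MRPS7 toward GGA3. The others lay at MRPS18B toward PPP1R10, MRPL20 toward MRPL20-DT and MRPS9 toward MRPS9-AS2.

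**Figure D4:**
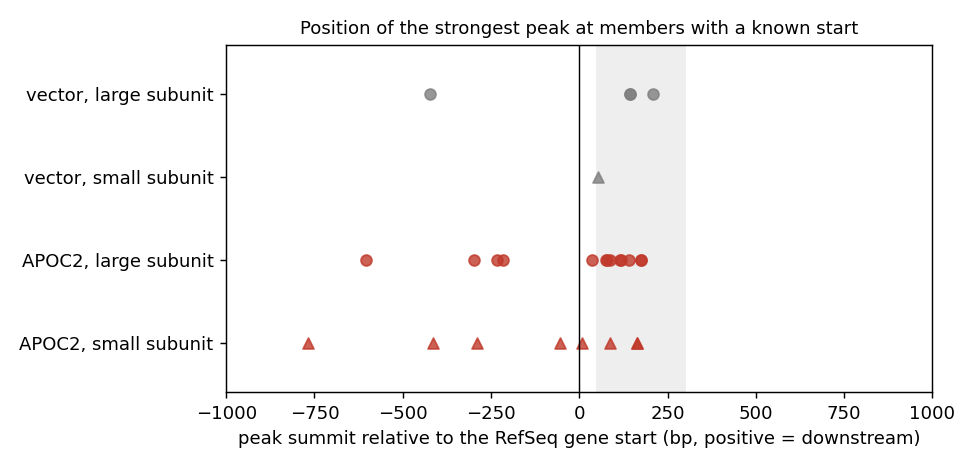
Position of the summit of the strongest peak relative to the RefSeq gene start (x axis, bp; positive is downstream of the start) for members with a known start, by library and subunit (circles for the large and triangles for the small subunit). The grey band marks 50 to 300 bp past the start, which holds 11 of the 21 APOC2 summits.

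Many of these peaks lay near other genes too. Of the 27 strongest peaks in the APOC2 library, 22 also lay within 1 kb of a boundary of another gene with a RefSeq transcript. For 18 of them such a gene was protein-coding. The same count was not made over all occupied protein-coding genes, so whether it is particular to the members was not tested. The peaks of MRPL17, MRPL22, MRPL35, MRPS5 and MRPS25 had no other such boundary within 1 kb, so these 5 were the peaks that no neighbour shared by this measure. Among the 69 members with a known start, 22 had a protein-coding neighbour that started within 1 kb on the opposite strand. Of these 22, 11 (50%) were occupied in the APOC2 library, against 11 of the 47 members without such a neighbour (23.4%). Over all protein-coding genes with a known start the same shares were 42.2% of 1975 and 21.9% of 13867. The split by divergent neighbours thus ran the same way among the members as over protein-coding genes at large, and whether its size differed was not tested. Which gene of a pair the peak belongs to was not tested.

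Promoter sequence was described with RefSeq promoters of 300 bases, 250 before to 50 after the start, available for 69 members and for 15842 protein-coding genes. Motifs were searched on both strands as fixed letters, and none of them contains another: CCGGAAG for the ETS family to which GABPA belongs, ATGGCGG for YY1, CGCATGCG for NRF1, CACGTG for the E-box and TATAAA for the TATA box. The ETS letters stood in 29 of the 69 member promoters (42.0%), against 14.2% of all protein-coding promoters. The YY1 letters stood in 24 (34.8%), against 7.63%. NRF1 letters were found in 3 members, MRPL17, MRPL22 and MRPS18C (4.35%, against 2.88%), the E-box in 6 (8.70%, against 8.88%) and the TATA letters in 2, MRPL54 and MRPS15 (2.90%, against 9.63%). The ETS and YY1 letters were thus more frequent at members than at protein-coding genes at large. These matches are descriptions of letters and not binding sites.

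The same motifs were compared between occupied and unoccupied members. ETS letters were present at 9 of 22 members occupied in the APOC2 library (40.9%) and at 20 of 46 occupied in neither (43.5%). YY1 letters were present at 8 of 22 (36.4%) and 16 of 46 (34.8%). Over all protein-coding genes the ETS shares were 22.4% of occupied and 11.5% of unoccupied genes, and the YY1 shares 12.1% and 6.16%. The gap between occupied and unoccupied genes seen over all protein-coding genes was therefore not seen among the members for these motifs, although the number of members allows wide intervals. The E-box letters were present at 4 of 22 occupied (18.2%) and 2 of 46 unoccupied members (4.35%), against 9.61% and 8.64% over all protein-coding genes. The NRF1 letters were present at 3 of 22 (13.6%) and 0 of 46, against 4.83% and 2.24%. These last counts are too small to show a difference.

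**Figure D5:**
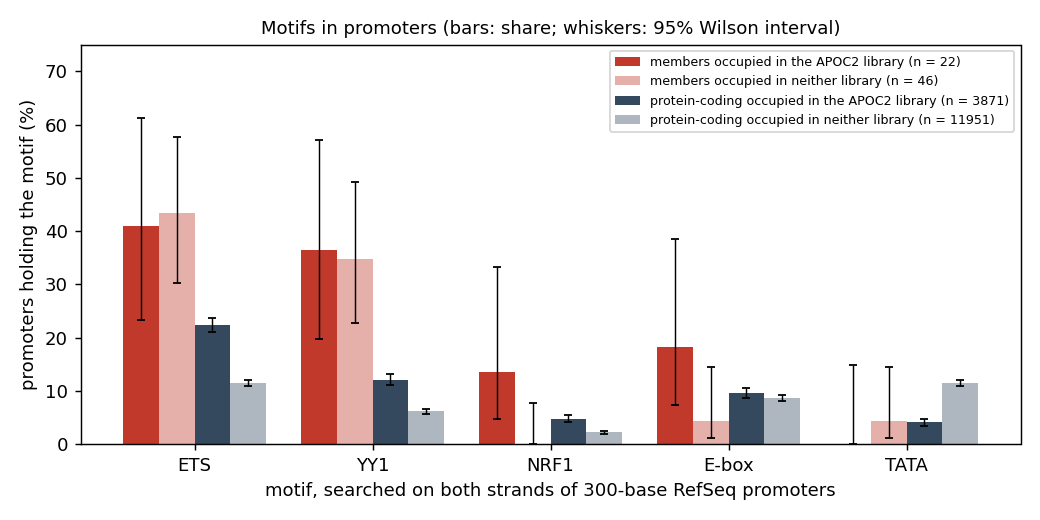
Share of 300-base RefSeq promoters that hold each motif (y axis, percent; whiskers are 95% Wilson intervals) for members occupied in the APOC2 library, members occupied in neither library, and protein-coding genes divided in the same way. ETS (40.9% and 43.5%) and YY1 (36.4% and 34.8%) stand at like heights in both groups of members.

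Base composition was compared as well. The median GC content of the promoters was 62.3% (57.0 to 73.7%) at the 22 members occupied in the APOC2 library and 59.2% (57.0 to 63.0%) at the 46 occupied in neither. Over all protein-coding genes these medians were 67.0% and 61.0%. The ratio of observed to expected CpG, a measure of how far CpG has been kept, was 0.899 at occupied and 0.848 at unoccupied members, against 0.878 and 0.689 over all protein-coding genes. Unoccupied members thus had a higher CpG ratio than unoccupied protein-coding genes at large, and lay close to the occupied genes.

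The wider machinery of mitochondrial translation was covered by lists of genes outside the symbol rule, to be read against 5.95% (vector) and 23.8% (APOC2) of all protein-coding genes. Of 5 mitoribosome subunits with other names (DAP3, PTCD3, AURKAIP1, CHCHD1 and GADD45GIP1), 0 were occupied in the vector library (upper Wilson bound 43.4%), and PTCD3 (fold enrichment 5.08) and GADD45GIP1 (5.03) were occupied in the APOC2 library. Of 25 genes for mitoribosome assembly and ribosomal RNA modification, 3 were occupied in the vector library (12.0%) and 13 in the APOC2 library (52.0%, 33.5 to 70.0%). RBFA, which binds and helps mature the small subunit RNA, had a fold enrichment of 10.4 for the vector and 13.6 for APOC2, above those of every mitoribosomal protein gene. MTERF3, on chromosome 8, had 4.95 and 7.62, and TRUB2, a pseudouridine synthase gene on chromosome 9, had 4.66 and 5.41. In the APOC2 library alone, METTL15 had 10.4 and YBEY 9.15. Of 15 genes for translation factors, insertion and related roles, 0 were occupied in the vector library (upper Wilson bound 20.4%). In the APOC2 library 5 were occupied (33.3%, 15.2 to 58.3%). These were TSFM, the exchange factor of the elongation factor, with 8.86, MRRF with 6.24, MTRF1L with 5.10, MTRFR with 4.48 and SLIRP with 3.66.

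Finally, 2 related families were set beside the members. Cytosolic ribosomal protein genes, 93 in number, were occupied at 14.0% for the vector and 46.2% (36.5 to 56.3%) for APOC2. This set was chosen by symbol, as RPL or RPS and a digit plus a few named genes, without the RPS6K kinases. Whether each gene that shares these letters encodes a ribosomal protein was not checked. Subunit genes of the nuclear-encoded respiratory chain, 81 in number, were occupied at 13.6% and 37.0% (27.3 to 47.9%). The intervals of both families overlapped those of the mitoribosomal protein genes in either library. The median log2 ratio of fold enrichment at genes occupied in both libraries was 0.54 over 13 cytosolic ribosomal protein genes and 0.56 over 11 respiratory chain genes, against 0.43 over the 7 members. Differences between the families were not tested.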

How the data were processed

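PHF8 ChIP-seq peak tables of RKO cells were used, 1 library per condition. Per the submitters' processing notes, Bowtie2 2.2.9, MACS2 2.0 and HOMER were used with hg38, and the column names are those of a MACS2 peak table. Control library, thresholds and duplicate handling are not given in the sources used here. Per the file headers, the deposited tables give for each peak the pileup signal at the summit and the fold enrichment. A pair of deposited columns without a name was taken as -log10 p-value and -log10 q-value, from their place and values. The highest q-value listed was 0.0266 for the vector and 0.0450 for APOC2. Read totals are unknown. Relative depth came from the vector pileup step (0.98953, tolerance 0.006) and the APOC2 background step (0.833, searched from 0.7 to 1.01; 63.0% of backgrounds within 0.01). Shared control reads were assumed.

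Gene positions and promoters came from RefSeq tables for GRCh38.p14, the same assembly as hg38. The gene table gives no strand or exons, so strand came from the promoter table and exonic position was not determined. The promoter table held no entry for MRPL2, MRPL10, MRPL13, MRPL15, MRPL21, MRPL23, MRPL35 and MRPS28. Members, lists and the rule for named genes were chosen with earlier results of these data known. Named with values were the members occupied in both libraries or in the vector library alone, and the 10 highest and 5 lowest of the APOC2 library alone; others are named for their roles. The occupancy code was tested on simulated peaks. Python 3.11.15, pandas 2.3.3 and scipy 1.17.1 were used. Alternatives changed the distance, the gene end, the peak threshold, the number of peaks and the measure.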

Additional observations from a re-analysis of the deposited data

How the results depend on the processing

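No paired analysis was possible because each condition had 1 library, and for the same reason no library could be left out. Over 11 alternative settings, 91 values were recomputed: 74 stayed within the interval of the reported value, 16 left it and 1 changed sign. The 74 include 11 values at a q-value of at most 0.001 that could not move, since every member peak met that limit. Exclusion of chromosomes 8 and 9 was chosen after seeing the data. In each setting that recomputed shares, the APOC2 share of the members was above the vector share. When the peak itself had to overlap a gene end, the vector and APOC2 shares were 2.60% and 15.6% of all members. They were 4.08% and 16.3% for the large and 0% and 14.3% for the small subunit. Over all protein-coding genes they were 1.45% and 8.55%. The members' median log2 ratio was then -0.062, over the single pair left (MRPL13). At a minimum fold enrichment of 5, 14.1% of all protein-coding genes were occupied in the APOC2 library. The members' APOC2 shares were 22.1% (all members), 24.5% (large) and 17.9% (small). With equal numbers of top-ranked peaks they were 15.6%, 14.3% and 17.9%, and the median APOC2 fold enrichment was 6.47. Without chromosomes 8 and 9, the members' vector shares were 4.23% (all members), 6.67% (large) and 0% (small). The cause was not tested in any of these. The order of the subunits in the APOC2 library turned with the gene start alone, counted over the 69 members with a known start, and with equal numbers of peaks. Peak tables hold no signal below the caller's threshold, so weaker occupancy could not be seen.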
